A study of Mus musculus with 47 samples.

Results

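The 10 genes described here encode the 4 subunits of the AMPA receptor (Gria1, Gria2, Gria3 and Gria4) and 6 proteins that bind the receptor or its complexes (Cacng2, Cacng8, Dlg4, Grip1, Grip2 and Pick1). They were taken by gene symbol from the deposited count tables, in which they were 10 of 33139 rows for brainstem and 10 of 31751 rows for hippocampus. Grip2 was picked for its genotype by diet interaction in these same hippocampus libraries. Its hippocampus values are therefore given as a description without a test. The other 9 genes, the brainstem values of Grip2 and the comparison of the regions were tested.

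PolyA RNA was sequenced from the brainstem (medulla) and the whole hippocampus of male C57BL/6 mice at 12 months of age. TG mice were homozygous for a transgene that the Thy1 promoter expresses in neurons of the central nervous system, and WT mice came from a parallel colony of the same outcross, so the transgene and the colony cannot be told apart. From 5 weeks of age each genotype received a standard diet (SD) or a high-fat diet (HFD). Hippocampus had 6 libraries in each of WT_SD, WT_HFD, TG_SD and TG_HFD, and brainstem had 5 in WT_SD and 6 in each other group, 47 in all. The labels do not tie brainstem and hippocampus libraries to the same mice.

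AMPA receptors are the glutamate-gated channels that carry most fast excitatory transmission in the brain, and their subunit composition sets their kinetics and calcium permeability. Auxiliary subunits of the TARP family, such as stargazin (Cacng2) and its hippocampal relative Cacng8, bring the channels to the surface and tie them to the postsynaptic scaffold that Dlg4 encodes. The GRIP proteins (Grip1, Grip2) and PICK1 are PDZ scaffolds that bind the short carboxy-terminal tails of GluA2 and GluA3. GRIP proteins are known to stabilise receptors at synapses and on vesicles, and PICK1 takes part in their removal from the surface.

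The ends of the coding sequences are shown for the receptor subunits and the TARPs. In Gria2 and Gria3 they encode the tail ends that GRIP and PICK1 bind. In the TARPs they encode the ends that the Dlg4 product binds. Gria1 and Gria4 are shown for comparison. Each line gives the last 30 bases of the coding sequence of the principal GENCODE transcript, 5′ to 3′ on the coding strand, with the final 12 bases before the stop codon in capitals.
Gria1: gggatgcccttgggaGCCACAGGATTGtaa
Gria2: gtatatggcatcgagAGTGTTAAAATTtag
Gria3: gtgtatggaacagaaAGTGTTAAGATCtag
Gria4: ttggctgtcattgcaTCGGACCTACCAtaa
Cacng2: acagccaaccgccggACCACGCCCGTAtga
Cacng8: acgctcaacaggaaaACCACGCCCGTGtag

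Gria2 and Gria3, whose proteins bind GRIP and PICK1, shared 10 of the 12 bases in capitals. Gria1 shared 2 of 12 with Gria2, and Gria4 shared 2 of 12 with Gria2. Cacng2 and Cacng8, whose proteins bind the Dlg4 product, shared 11 of 12. These stretches lie in coding exons, in the last exon of Gria1 (exon 16 of 16), Gria4 (exon 17 of 17), Cacng2 and Cacng8 (exon 4 of 4 in both), and in the exon before the last of Gria2 and Gria3 (exon 15 of 16 in both). In the annotation of GRCm38, which is not the build behind the deposited counts, the Gria2 stretch is at chr3:80689106-80689135 on the minus strand and the Gria3 stretch at chrX:41672435-41672464 on the plus strand. The stretch of Gria1 is at chr11:57327617-57327646 on the plus strand and that of Gria4 at chr9:4420152-4420181 on the minus strand. The stretch of Cacng2 is at chr15:77995149-77995178 on the minus strand and that of Cacng8 at chr7:3415576-3415605 on the plus strand.

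Depth was between 10020784 and 15078812 counted reads a library in brainstem and between 11945971 and 17328447 in hippocampus. The markers of medullary neurons (Slc6a5, Glra1, Slc17a6, Chat and Slc5a7) summed to between 540 and 878 CPM, which scale each count to the size of its library, in brainstem and between 4.92 and 16.1 CPM in hippocampus. Forebrain glutamatergic markers summed to between 112 and 192 CPM in brainstem and between 4748 and 5830 CPM in hippocampus. Oligodendrocyte markers summed to between 10000 and 17300 CPM in brainstem and between 2492 and 3721 CPM in hippocampus. Pan-neuronal markers overlapped, at 4511 to 5190 CPM in brainstem and 4696 to 5548 CPM in hippocampus. The part of tissue make-up in the region differences below was not tested. Choroid plexus markers summed to between 10.2 and 2916 CPM in brainstem and between 15.4 and 288 CPM in hippocampus, with wide ranges inside every brainstem group. Library names carry a letter that changes with each region, genotype and diet group, so any handling in those sets cannot be told apart from the groups. In bulk tissue, fewer cells of a type and less RNA per cell cannot be told apart.

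The regions were compared first, to ask where each gene is transcribed. Levels are given as CPM per kilobase of exon (CPKM), which allows genes of different length to be set side by side. All 10 genes passed the filter of a mean count of at least 50. A gene was called where edgeR's quasi-likelihood test, adjusted over the 13458 genes tested, gave p no higher than 0.05 and the log2 fold change was 0.3 or more in either direction. By this rule 6 of the 10 were higher in hippocampus, 3 were lower and 1 was not called. Of all genes tested, 60.2% were called between the regions, 29.2% higher and 31% lower in hippocampus, so a call between the regions was common. The same 6, 3 and 1 were found within WT_SD, WT_HFD, TG_SD and TG_HFD, where 59.5%, 61.5%, 60.8% and 58.6% of all genes were called. The normalized counts of the regions did not overlap for 9 of the 10 genes, against 17.7% of all genes on the higher side and 17.3% on the lower side.

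**Figure D1:**
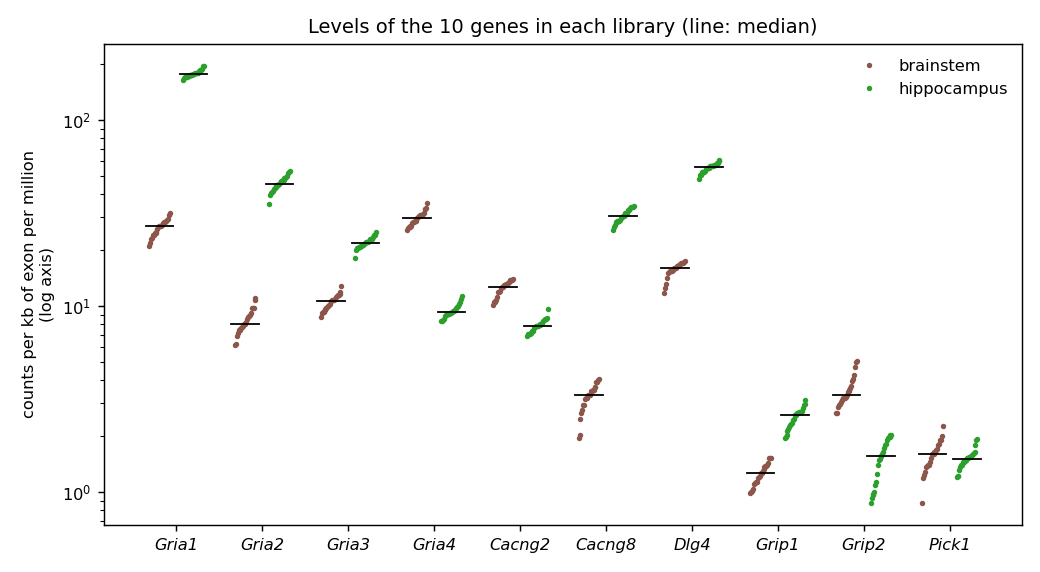
Level of each of the 10 genes in every library, in CPKM on a log axis, with brainstem in brown (23 libraries), hippocampus in green (24 libraries) and a line at the median. Gria1 in hippocampus had the highest median, 177, and Pick1 is the gene whose medians lie closest together, at 1.61 and 1.51.

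Among the receptor subunits, Gria1, Gria2 and Gria3 were higher in hippocampus and Gria4 was lower. Gria1 (ENSMUSG00000020524), which encodes GluA1, the subunit best known for its recruitment to hippocampal synapses during plasticity, ranged in brainstem from 21.1 to 31.6 CPKM with a median of 26.8 (n = 23) and in hippocampus from 165 to 196 with a median of 177 (n = 24). Its log2 fold change was 2.75 (SE 0.0362 and edgeR adjusted p = 1.38e-48). Gria2 (ENSMUSG00000033981), which encodes the subunit whose RNA-edited pore makes receptors nearly impermeable to calcium, ranged from 6.16 to 11 CPKM with a median of 8.02 in brainstem and from 35.4 to 53.0 with a median of 45.4 in hippocampus. The log2 fold change of Gria2 was 2.46 (SE 0.0519 and edgeR adjusted p = 8.23e-40).

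The difference of Gria3 was smaller than those of Gria1 and Gria2. Gria3 (ENSMUSG00000001986) ranged from 8.72 to 12.9 CPKM with a median of 10.7 in brainstem and from 18.1 to 24.9 with a median of 21.9 in hippocampus, a log2 fold change of 1.06 (SE 0.0356 and edgeR adjusted p = 3.64e-31). Gria4 (ENSMUSG00000025892), which encodes a subunit with fast kinetics that is prominent in brainstem circuits, went the other way. It ranged from 25.6 to 35.9 CPKM with a median of 29.95 in brainstem and from 8.33 to 11.3 with a median of 9.26 in hippocampus, a log2 fold change of -1.66 (SE 0.0343 and edgeR adjusted p = 3.3e-40).

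Read as shares of the 4 subunit transcripts, the 2 regions had different make-ups in every library. In brainstem Gria4 took 39.7% ± 1.99 and Gria1 took 35.2% ± 2.43 of the subunit signal per exon length, with Gria3 at 14.1% ± 1.49 and Gria2 at 11.1% ± 0.974 (mean ± SD over 23 libraries). In hippocampus Gria1 took 69.8% ± 1.44, Gria2 17.9% ± 1.24, Gria3 8.60% ± 0.296 and Gria4 3.69% ± 0.245 (mean ± SD over 24 libraries). The ratio of Gria1 to Gria4 ranged from 0.676 to 1.06 in brainstem and from 15.4 to 21.6 in hippocampus. Shares depend on the length assigned to each gene, and Gria2 has long annotated ends. Dividing by the longest protein-coding transcript gave Gria2 13.0% in brainstem and 21.7% in hippocampus, and Gria3 20.9% and 13.2%. With no division by length, Gria2 took 22.2% in brainstem and 34.4% in hippocampus, and Gria3 17.9% and 10.5%. By that measure Gria2 was above Gria3 in brainstem.

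**Figure D2:**
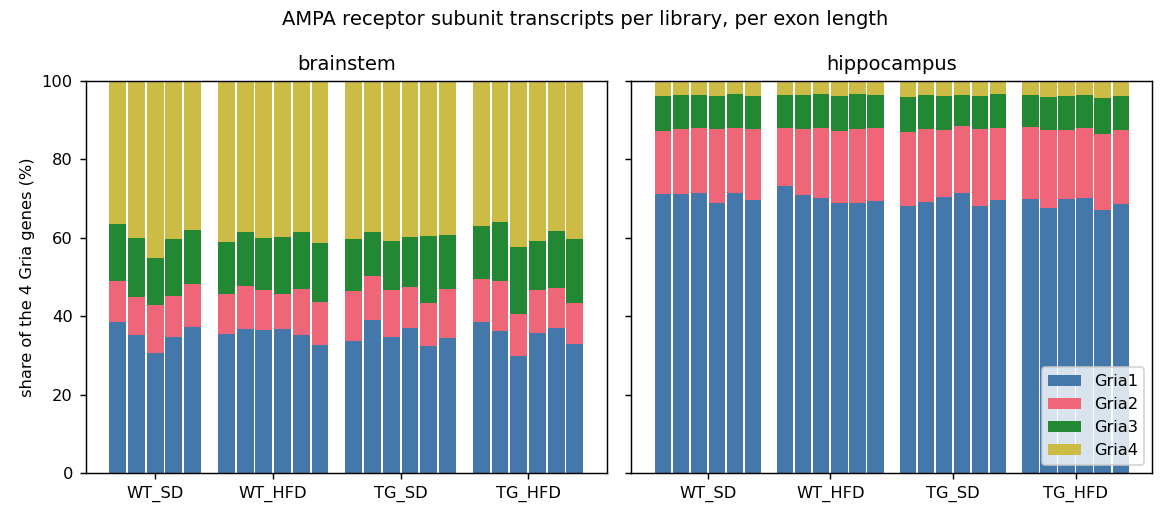
Share of Gria1, Gria2, Gria3 and Gria4 in the summed level of the 4 genes (percent, per exon length), as 1 stacked bar per library, ordered by group, with brainstem on the left and hippocampus on the right. Gria4 takes 36.0% to 45.1% in the brainstem libraries and 3.31% to 4.37% in the hippocampus libraries.

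The TARPs split by region. Cacng8 (ENSMUSG00000053395), the TARP most abundant in hippocampal pyramidal cells, ranged from 1.96 to 4.07 CPKM with a median of 3.34 in brainstem and from 25.7 to 34.6 with a median of 30.6 in hippocampus. Its log2 fold change of 3.23 (SE 0.0512 and edgeR adjusted p = 3.54e-45) was the largest in size of the 10 genes. Cacng2 (ENSMUSG00000019146), which encodes stargazin, ranged from 10.2 to 14.0 CPKM with a median of 12.8 in brainstem and from 6.96 to 9.62 with a median of 7.86 in hippocampus, a log2 fold change of -0.67 (SE 0.0363 and edgeR adjusted p = 1.77e-22). The ratio of Cacng8 to Cacng2 thus ranged from 0.151 to 0.360 in brainstem and from 3.22 to 4.45 in hippocampus.

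Of the scaffolds, Dlg4 and Grip1 were higher in hippocampus, Grip2 was lower and Pick1 was not called. Dlg4 (ENSMUSG00000020886) ranged from 11.7 to 17.6 CPKM with a median of 16.1 in brainstem and from 48.3 to 60.9 with a median of 56.0 in hippocampus, a log2 fold change of 1.82 (SE 0.0342 and edgeR adjusted p = 6.14e-42). Grip1 (ENSMUSG00000034813) ranged from 0.990 to 1.54 CPKM with a median of 1.27 in brainstem and from 1.96 to 3.14 with a median of 2.59 in hippocampus, a log2 fold change of 0.998 (SE 0.0551 and edgeR adjusted p = 3.34e-22).

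Grip2 (ENSMUSG00000030098) had the opposite regional difference to its paralog. It ranged from 2.66 to 5.11 CPKM with a median of 3.34 in brainstem and from 0.875 to 2.04 with a median of 1.58 in hippocampus, a log2 fold change of -1.25 (SE 0.0722 and edgeR adjusted p = 2.15e-21). Its 4 within-group values lay between -1.52 in WT_SD and -1.04 in TG_SD. The ratio of Grip2 to Grip1 ranged from 2.09 to 4.52 in brainstem and from 0.311 to 1.02 in hippocampus. By CPKM, Grip2 was thus the more abundant GRIP transcript in every brainstem library and the less abundant in 23 of 24 hippocampus libraries. Raw counts were higher for Grip2 than Grip1 in hippocampus WT_HFD replicates 3 (219, 204), 5 (247, 208) and 6 (227, 200). Pick1 (ENSMUSG00000068206) ranged from 0.876 to 2.28 CPKM with a median of 1.61 in brainstem and from 1.20 to 1.93 with a median of 1.51 in hippocampus. The regions overlapped for Pick1, and its log2 fold change of -0.06 (SE 0.0637) did not pass the test (edgeR adjusted p = 0.375).

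Ordered by median CPKM, brainstem ran Gria4, Gria1, Dlg4, Cacng2, Gria3, Gria2, Cacng8, Grip2, Pick1 and Grip1. Neighbouring genes whose library ranges overlapped there were Gria4 with Gria1, Dlg4 with Cacng2, Cacng2 with Gria3, Gria3 with Gria2, Cacng8 with Grip2, and Pick1 with Grip1. Hippocampus ran Gria1, Dlg4, Gria2, Cacng8, Gria3, Gria4, Cacng2, Grip1, Grip2 and Pick1, with overlaps of Dlg4 with Gria2, Gria4 with Cacng2, Grip1 with Grip2, and Grip2 with Pick1. The GRIP and PICK1 transcripts thus had the lowest median CPKM of the set in both regions, though Cacng8 and Grip2 overlapped in brainstem. The lowest raw counts behind these levels were 57 for Cacng8 and 70 for Pick1 in brainstem, and 111 for both Grip2 and Pick1 in hippocampus.

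Other genes of the receptor complex were followed in 5 lists. Their counts of calls stand beside 29.2% of all genes called higher and 31% called lower in hippocampus. In hippocampus 8 of the 12 tested auxiliary subunits were higher and 3 lower, with a median log2 fold change of 1.28, beside -0.02 over all genes. At the upper end were the cornichons Cnih2 (3.94, SE 0.0536) and Cnih3 (3.71, SE 0.0596), which promote receptor export and slow gating, and at the lower end the TARP genes Cacng4 (-0.64, SE 0.0355) and Cacng5 (-0.49, SE 0.0551). Of 5 genes for assembly in the endoplasmic reticulum 4 were higher and 1 lower, with a median of 1.06, led by Frrs1l (1.63, SE 0.0484) and Cpt1c (1.42, SE 0.0403) and, on the lower side, Sacm1l (-1.10, SE 0.0425). All of these named genes passed edgeR's test, with adjusted p values between 5.61e-48 and 2.31e-11.

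Among 21 scaffolding and trafficking genes 16 were higher and 1 lower in hippocampus, with a median of 1.58. For all genes the shares were again 29.2% higher and 31% lower, with a median of -0.02. Akap5, an anchor for kinases and phosphatases at the synapse, differed by 3.39 (SE 0.058), while Nsg1, an endosomal protein of neurons, differed by -0.51 (SE 0.0191). Of 10 extracellular organizers 7 were higher and 3 lower, with a median of 1.61. Nptxr (3.70, SE 0.0398) and Nptx1 (2.76, SE 0.0384), pentraxins that cluster AMPA receptors, stood at one end, and Olfm3 (-1.48, SE 0.062) and Olfm2 (-1.01, SE 0.0466) at the other. Of the other ionotropic glutamate receptors 9 of 13 tested were higher and 3 lower, with a median of 0.94, from the NMDA receptor genes Grin2b (3.76, SE 0.105) and Grin2a (2.84, SE 0.0689) to Grin2d (-1.002, SE 0.0678). All of these named genes passed edgeR's test, with adjusted p values between 2.99e-52 and 9.03e-19.

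**Figure D3:**
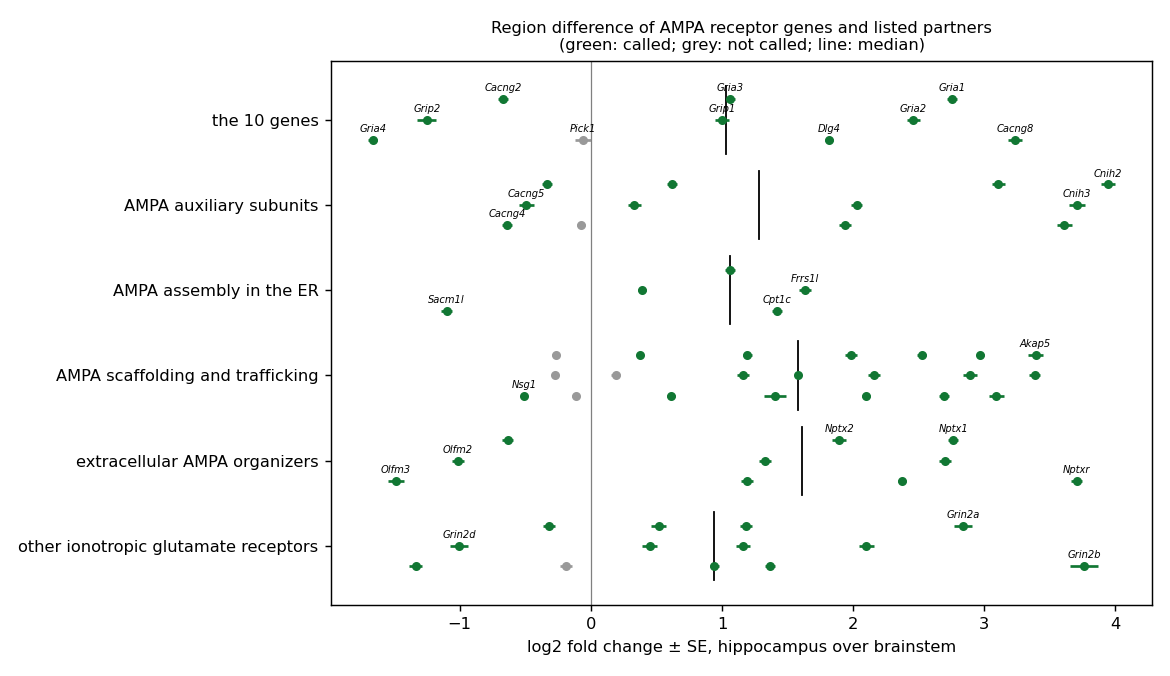
Log2 fold change of hippocampus over brainstem with its SE for the 10 genes and for 5 lists of partner genes, with called genes in green, genes not called in grey and a line at the median of each row. Names are given for the genes described in the text. The medians of the 6 rows lie between 0.94 and 1.61, and Grip2 sits at -1.25, close to Gria4 at -1.66.

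Within each region, the genes were then compared between the 4 groups to ask whether genotype, diet or their interaction changed them. The fit of each region had the 4 groups and 4 surrogate variables, which are covariates estimated from the data to absorb unlabelled variation. The interaction is the diet difference in TG minus that in WT. In brainstem 0 of the 10 genes were called in any of the 5 comparisons, against 0.142% of 13340 genes for TG_SD/WT_SD, 0.0525% for TG_HFD/WT_HFD, 0% for WT_HFD/WT_SD, 0.0075% for TG_HFD/TG_SD and 0.0075% for the interaction. DESeq2 with the same surrogate variables also called 0. In hippocampus 0 of the 9 genes other than Grip2 were called by either tool, against 0.0904%, 0.226%, 0%, 0% and 0% of 13272 genes in the same order. At an unadjusted p of at most 0.05, edgeR gave 4 of 50 tests in brainstem, 2 of Grip2 and 2 of Gria2, and 3 of 45 in hippocampus, all of Grip1, over the 9 genes other than Grip2. Of all genes, 10.5%, 5.59%, 5.43%, 6.91% and 4.83% reached that level in the 5 brainstem comparisons and 9.08%, 11.3%, 6.4%, 7.08% and 5.98% in the hippocampus comparisons, in the order above.

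Grip2 in hippocampus is described without a test, since this pattern put it on the list. Normalized counts in WT_SD ran from 115 through a median of 140 to 235, and in WT_HFD from 252 through 262.5 to 272. In TG_SD they ran from 189 through 206 to 242, and in TG_HFD from 125 through 157 to 231. Every WT_HFD library was therefore above every library of the 3 other groups, while WT_SD and TG_HFD overlapped widely. Of all genes, 0.286% were without overlap and higher in WT_HFD than in WT_SD, and 3.41% were without overlap and lower in TG_HFD than in WT_HFD. The share for WT_HFD over TG_SD, where the nearest libraries had 252 and 242 counts, is not given here.

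The spread of Grip2 differed between the hippocampus groups. In WT_SD 4 libraries lay between 115 and 151 normalized counts and the other 2 at 219 and 235. In TG_HFD 4 libraries lay between 125 and 167 and the other 2 at 209 and 231. The variance was 16.05 times the mean in WT_SD and 10.97 times in TG_HFD, but 1.62 times in TG_SD and 0.252 times in WT_HFD, where a value of 1 is what read counting alone would give.

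The fitted differences of Grip2 in hippocampus, again as a description, were 0.75 on the log2 scale for WT_HFD/WT_SD (SE 0.16) and -0.31 for TG_HFD/TG_SD (SE 0.136). Between genotypes they were 0.32 on SD (SE 0.145) and -0.74 on HFD (SE 0.189). The interaction was -1.06 (SE 0.215), and without surrogate variables it was -0.997 (SE 0.207). A correction for the GC content of transcripts was fitted without surrogate variables. It gave -0.86 for the interaction, 0.57 for WT_HFD/WT_SD and -0.45 for TG_HFD/WT_HFD. With neither the correction nor surrogate variables the last 2 were 0.68 and -0.64. Leaving out each library in turn gave values from -1.24 to -0.93 for the interaction. The genotype difference on SD depended on single libraries, at 0.18 without WT_SD replicate 6 and 0.51 without WT_SD replicate 8.

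In brainstem, where Grip2 could be tested, its groups overlapped. The 5 WT_SD libraries had 315, 358, 377, 429 and 603 normalized counts. WT_HFD ran from 371 through a median of 494 to 589, TG_SD from 315 through 394 to 423, and TG_HFD from 342.5 through 381 to 473. The single highest library was in WT_SD, and the WT_HFD median was above the 3 other medians.

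None of the 5 brainstem comparisons of Grip2 passed edgeR's test. TG_HFD/WT_HFD was -0.39 (SE 0.147, adjusted p = 0.816), WT_HFD/WT_SD was 0.27 (SE 0.13, adjusted p = 0.918) and the interaction was -0.31 (SE 0.192, adjusted p = 0.993). TG_HFD/TG_SD was -0.04 (SE 0.128, adjusted p = 0.972) and TG_SD/WT_SD was -0.09 (SE 0.126, adjusted p = 0.856). The first 2 of these were the Grip2 values with an unadjusted p under 0.05. With the GC correction, fitted without surrogate variables, the first 3 values were -0.17, 0.12 and -0.14. With neither they were -0.35, 0.23 and -0.22. WT_HFD/WT_SD was 0.17 without WT_SD replicate 1 and 0.43 without WT_SD replicate 8, and the interaction was -0.53 without TG_HFD replicate 1. Across the regions the Grip2 interaction differed by -0.77 (SE 0.289), again given without a test.

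**Figure D4:**
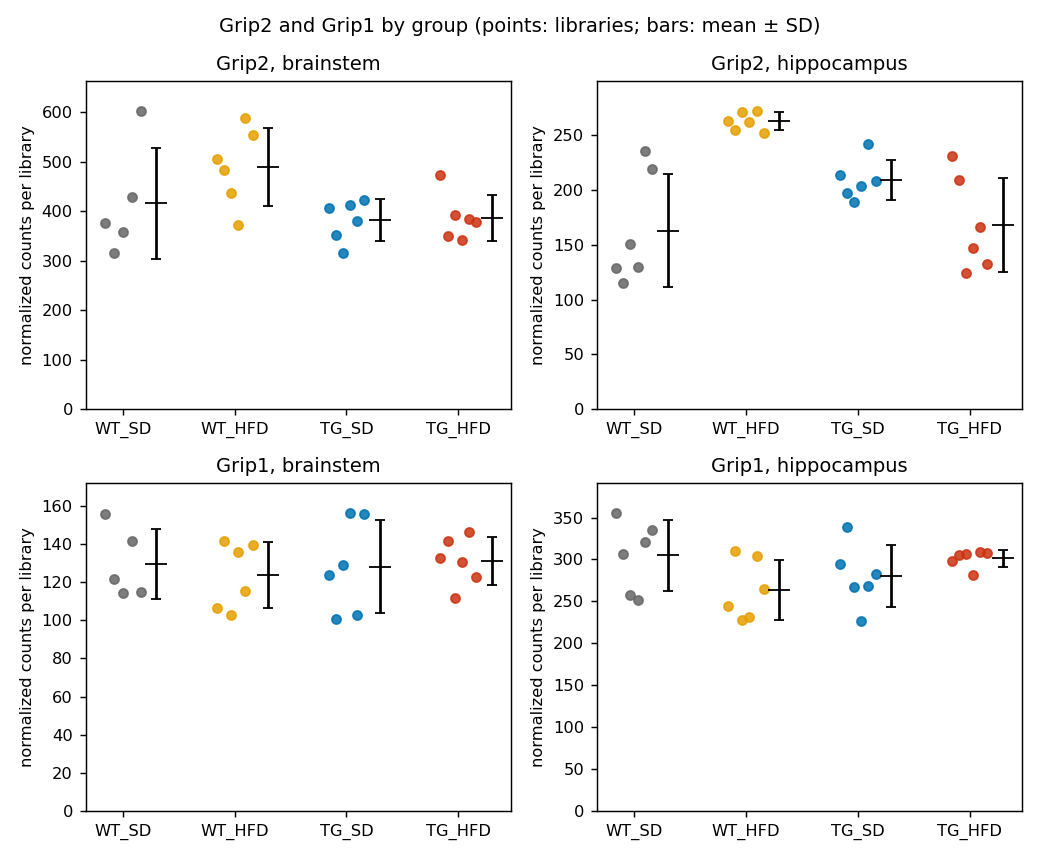
Normalized counts of Grip1 and Grip2 in every library of the 4 groups, in brainstem and hippocampus, with the group mean and SD. In hippocampus the WT_HFD libraries of Grip2 sit between 252 and 272, above all others, and the WT_SD and TG_HFD libraries spread from 115 to 235.

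The composition and sequence bias of the hippocampus libraries are given beside this pattern. The slope of expression on transcript GC content was taken in log2 units per 10% GC. Its median was 0.13 in WT_HFD, 0.0249 in WT_SD, -0.0268 in TG_SD and -0.0622 in TG_HFD. WT_HFD had the highest median of both this slope and Grip2. The other groups came in a different order for Grip2, with median normalized counts of 206 in TG_SD, 157 in TG_HFD and 140 in WT_SD. Summed CA1 pyramidal markers (5 of 5 measured, none at 0) ranged from 554 to 644 CPM in WT_SD, 602 to 684 in WT_HFD, 486 to 631 in TG_SD and 558 to 603 in TG_HFD. Their medians were 585, 656, 568 and 574 in that order, highest in WT_HFD. Dentate granule markers ranged from 252 to 319.5 CPM in WT_SD, 255 to 324.5 in WT_HFD, 189 to 311 in TG_SD and 230 to 258 in TG_HFD. The dentate medians were 276, 283, 279 and 237 in the same order. The part of GC bias and of these cell types in the Grip2 pattern was not tested, other than by the GC-corrected values above.

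Grip1 in hippocampus had small differences in the opposite direction that did not pass the test in the main fit. It ran from 252 through a median of 314 to 356 normalized counts in WT_SD, from 228 through 254.5 to 310 in WT_HFD, from 226.5 through 276 to 339 in TG_SD and from 281 through 306 to 308 in TG_HFD. All 4 groups overlapped, with the lowest median in WT_HFD. The log2 fold change was -0.25 for WT_HFD/WT_SD (SE 0.0759 and edgeR adjusted p = 0.635), 0.26 for TG_HFD/WT_HFD (SE 0.0893 and edgeR adjusted p = 0.217) and 0.33 for the interaction (SE 0.101 and edgeR adjusted p = 0.632). Without WT_SD replicate 3 the first 2 values were -0.14 and 0.15. Over all alternatives the adjusted p of TG_HFD/WT_HFD ranged from 0.0242 to 0.437. The fold change there ranged from 0.19 to 0.28, under the fold required for a call.

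The ratio of Grip2 to Grip1 put both genes together, and is likewise a description. In hippocampus its median was 0.474 in WT_SD, 0.873 in WT_HFD, 0.629 in TG_SD and 0.458 in TG_HFD. The WT_HFD libraries (0.709 to 1.02) were above every WT_SD library (0.311 to 0.631) and every TG_HFD library (0.350 to 0.666), and overlapped TG_SD (0.501 to 0.776). In brainstem Grip1 lay between 101 and 156.5 normalized counts over all groups.

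The receptor subunits, TARPs, Dlg4 and Pick1 showed no called difference between the groups in either region. In brainstem their log2 fold changes lay between -0.08 for Gria4 and 0.18 for Pick1 in TG_HFD/WT_HFD, and between -0.12 for Gria2 and 0.15 for Pick1 in the interaction. In hippocampus they lay between -0.13 for Pick1 and 0.09 for Gria4 in TG_HFD/WT_HFD, and between -0.16 for Pick1 and 0.09 for Gria4 in the interaction. The largest SE among the within-region values of these 8 genes was 0.162, for Cacng8 in the brainstem interaction.

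Gria2 in brainstem had 2 values with an unadjusted p under 0.05. TG_SD/WT_SD was 0.09 (SE 0.0387 and edgeR adjusted p = 0.406) and the interaction was -0.12 (SE 0.0606 and edgeR adjusted p = 0.993). Groups overlapped in the first comparison. Without surrogate variables these values were 0.16 and -0.0091, and TG_SD/WT_SD was 0.0523 without WT_SD replicate 7.

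Cacng8 and Gria4 in hippocampus depended on the surrogate variables. Cacng8 ran from 1012 through 1115 to 1139 normalized counts in WT_HFD and from 888 through 960 to 991 in TG_HFD, without overlap, as did 3.41% of all genes in that direction. Its log2 fold change was -0.01 (SE 0.0485 and edgeR adjusted p = 0.954) with the surrogate variables and -0.21 (edgeR adjusted p = 0.0159) without them. Gria4 ran from 743 through 775.5 to 836 in WT_HFD and from 809 through 905 to 1005 in TG_HFD, with overlap. Its log2 fold change was 0.09 (edgeR adjusted p = 0.606) with them and 0.20 (edgeR adjusted p = 0.0318) without. Over all alternatives the adjusted p ranged from 0.0063 to 0.995 for Cacng8 and from 0.00702 to 0.768 for Gria4. Both values stayed under the fold required for a call, and without surrogate variables 3.88% of all genes were called in this comparison.

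**Figure D5:**
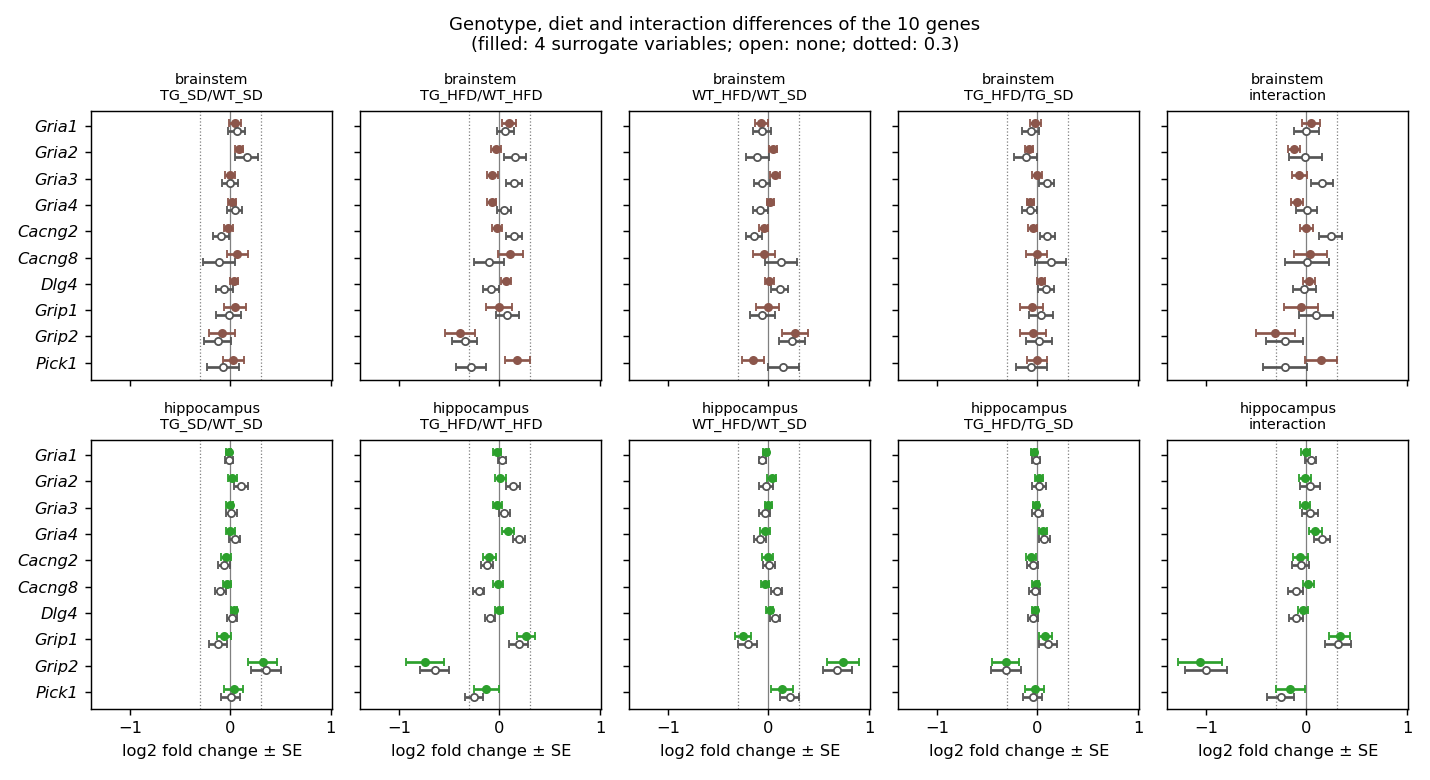
Log2 fold change with its SE for the 10 genes in the 5 comparisons within each region, with filled points for the fit with 4 surrogate variables, open points for the fit with none and dotted lines at 0.3. Grip2 in hippocampus lies farthest from 0, at -1.06 in the interaction, and is shown as a description.

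Of the genes in the 5 partner lists, 1 was called within a region. Nptx2, an activity-regulated pentraxin that clusters AMPA receptors, was lower in TG_HFD than in WT_HFD in hippocampus, and was 1 of 10 organizers tested. In that comparison 0.226% of all genes were called, and 3.41% were without overlap and lower in TG_HFD. It ran from 18.7 through 20.1 to 21.8 CPM in WT_HFD and from 12.7 through 13.3 to 15.2 in TG_HFD, without overlap, while WT_SD ran from 15.5 through 16.6 to 20 and TG_SD from 13.2 through 15.8 to 16.4. Its log2 fold change was -0.49 (SE 0.097 and edgeR adjusted p = 0.0158), and over the alternatives it ranged from -0.57 to -0.38 (adjusted p from 6.78e-10 to 0.0216). Without WT_SD replicate 3 the call was lost, at -0.41 (edgeR adjusted p = 0.0904).

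Whether the effects of genotype and diet differed between the regions was asked in a fit over all 47 libraries. By edgeR and by DESeq2, 0 of the 9 genes other than Grip2 were called for region by genotype, against 0.0223% of all genes, and 0 for region by diet, against 0%. For region by genotype by diet 0 of the 9 were called, against 0%. Grip2 itself differed by 0.09 for region by genotype (SE 0.145) and 0.06 for region by diet (SE 0.144), given without a test. Of the 9 genes Cacng2 alone had an unadjusted p under 0.05 in the last term, at -0.30 (SE 0.145 and edgeR adjusted p = 0.972), a level that 3.38% of all genes reached.

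The genes whose log2 CPM followed Grip2 most closely over the 24 hippocampus libraries, out of 13272 ranked, were Dcaf12 (Pearson r = 0.67), BX649560.1 (0.67), Frg2f1 (0.67), Tnks1bp1 (0.66) and Gm26822 (0.66). With the group means removed the values were 0.47, 0.60, 0.57, 0.37 and 0.47. In brainstem, over 23 libraries, they were -0.14 for Dcaf12, 0.23 for Frg2f1, 0.28 for Tnks1bp1 and -0.28 for Gm26822, and BX649560.1 did not pass the filter. Of the other 9 genes Cacng2 followed Grip2 most closely in hippocampus, at 0.40. These correlations share libraries, depth and groups and are given as a description.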

How the data were processed

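The authors deposited raw counts per Ensembl gene, 1 table per region. Per the submitters' processing notes they used FastQC 0.11.9, STAR 2.7.9a and DESeq2 1.32.0 on single-end reads of 75 bases; the counting method is not given in the sources used here. The deposited counts were used unchanged.

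Gene symbols were found for 32610 of 33139 brainstem and 31295 of 31751 hippocampus identifiers. The filter kept rows averaging 50 counts or more (13340 in brainstem, 13272 in hippocampus, 13458 over both). Counts were normalized by TMM and tested in R 4.3.3 with edgeR 4.0.16 (quasi-likelihood, Benjamini-Hochberg adjustment), with 4 surrogate variables per region from sva 3.50.0 and with none between regions. A call needed p no higher than 0.05 after adjustment and a log2 fold change of 0.3 or more in either direction. DESeq2 1.42.0, other filters, numbers of surrogate variables, a GC correction, a replicate block and leaving out libraries were alternatives. The GC correction was fitted without surrogate variables. CPKM divided CPM by the summed exon length. Total counts per library were at least 10020784. Within groups no pair of libraries agreed within sampling noise: the smallest chi-square per degree of freedom was 3.66. Pairs across groups were not checked. Scripts were tested on simulated data. Coding ends were read from GENCODE vM21 on GRCm38.

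Members and lists were chosen with earlier results of these data known. The genes named were the 10 members, the partner genes at either end of each list, those called within a region and the 5 most correlated with Grip2; the transgene and some listed partner genes are not reported here by name. The study took RNA from 6 animals in each group; the labels name no individual animals.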

Additional observations from a re-analysis of the deposited data

Results flagged for a closer look

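Of 80 sets of 5 or 6 libraries (10 genes, 2 regions and 4 groups), 1 held a library far from the others by Dixon's criterion, which chance alone meets in about 1 in 20 sets. Grip1 in hippocampus TG_HFD replicate 6 had 281.4 normalized counts, the lowest of its group, with the nearest library at 298.4 and the highest at 308.3. The gap took 0.634 of the range, just past the critical value, and the group was the tightest of the 4 for Grip1, with an SD of 10.4.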

How the results depend on the processing

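The counts of called members, with Grip2 in hippocampus not counted, did not move under any alternative run or with any library left out: 6 were higher and 3 lower in hippocampus, and 0 were called within regions. Some values that did not pass the test changed sign, and the cause was not tested. Grip2 in brainstem TG_HFD/TG_SD was 0.0434 with the replicate block, 0.0141 without surrogate variables and 0.0164 in DESeq2 without them. It was 0.0275 without 2 brainstem libraries, TG_HFD replicate 3 and TG_SD replicate 1, a choice made after seeing the data. Their GC slopes, -0.35 and -0.31, were the lowest in brainstem. Pick1 in brainstem TG_HFD/WT_HFD was -0.059 with the replicate block. It was -0.28 with no, -0.22 with 1 and -0.10 with 2 surrogate variables, and -0.29 in DESeq2 with none. The GC correction, also with no surrogate variables, gave -0.25, so its sign change was already there without the correction. Gria2 in brainstem TG_SD/WT_SD was -0.0269 with the replicate block. Cacng8 in hippocampus TG_HFD/WT_HFD was 0.0017 with the filterByExpr filter. It was 0.19 with the GC correction, fitted without surrogate variables, and -0.21 with neither. Pick1 between regions was 0.0128 with the replicate block. With each library left out in turn, Cacng8 ranged from -0.11 to 0.0034, Grip2 in brainstem TG_HFD/TG_SD from -0.197 to 0.0237 and in TG_SD/WT_SD from -0.212 to 0.0418. Between the fits with and without surrogate variables, 29 of 50 brainstem and 13 of 50 hippocampus values of the 10 genes changed sign. Same-numbered libraries correlated above 0.1 in 10 of 26 brainstem pairs, beside 60 of 172 pairs with different numbers. In hippocampus they did so in 15 of 36 pairs, beside 43 of 180. Between the regions they did so in 10 of 17 pairs (median 0.125), beside 31 of 121 pairs with different numbers (median -0.0238). The study took RNA of both regions from 6 animals per group, but the labels name no shared mice. The correlation did not pass 0.1 in every pair. The main fits took the libraries as unpaired, which does not show that they came from different mice. The replicate block changed none of these calls, between regions included, and gave -1.17 for the Grip2 interaction in hippocampus. Depth limits Cacng8, Pick1 and Grip1 in brainstem, whose lowest counts were 57, 70 and 90. It also limits Grip2 and Pick1 in hippocampus, where the lowest count of both was 111.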
